A study of Mus musculus with 8 samples.

Results

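The Hox genes of the mouse were examined in bulk RNA-seq libraries of the endometrium. All genes of the count table whose symbol is Hox, a cluster letter from a to d and a paralog number were taken, which gave 39 of 52325 genes. The Hoxa cluster had 11 of them, Hoxb 10, Hoxc 9 and Hoxd 9. The study asks how a mutant thyroid hormone receptor TRα1 acts on the uterus, and these libraries show which genes differ in the endometrium itself. Endometrium was cut by laser capture from frozen uterine sections of 4 wild-type (WT) females and 4 Thra1PV/+ females, all brought to metestrus, the stage of the mouse cycle that follows ovulation. The Thra1PV/+ mice carry the PV mutation, a C-terminal frameshift that makes TRα1 a dominant negative receptor, in 1 of the alleles of Thra, so every cell of the animal carries it from the start of development and the capture limits only what was sequenced. No treatment other than the cycle synchronization that both genotypes received is named for these libraries, and the ages of the 8 animals are not given in the sources used here.

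Hox genes encode homeodomain transcription factors. They lie in 4 clusters in which the order of the genes along the chromosome follows the order of their expression along the body axis, and genes with the same paralog number in different clusters descend from a common ancestor. Along the female reproductive tract the posterior Hoxa genes form such an axis: Hoxa9 marks the oviduct, Hoxa10 the uterus, Hoxa11 the uterus and the cervix, and Hoxa13 the upper vagina. Hoxa10 and Hoxa11 are also used by the adult endometrial stroma, where they are needed for implantation. On GRCm38, the assembly that mm10 names, the Hoxa genes spanned 105.3 kb of the minus strand (chr6:52155590-52260880), the Hoxb genes 173.9 kb (chr11:96194316-96368256), the Hoxc genes 115.8 kb (chr15:102921103-103036852) and the Hoxd genes 96.8 kb (chr2:74668310-74765142).

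The 250 bases before the start site are shown for 4 genes on which the results turn: Hoxa10 and Hoxa11, the tested posterior genes with the widest range between libraries, Hoxb8, the Hox gene with the highest level in 5 of the 8 libraries, and Hoxc4, the only Hox gene that passed the call in any test of all 8 libraries. The sequences are from RefSeq on GRCm38.p6 and are written 5′ to 3′ on the strand of the gene. The windows are chr6:52240855-52241104 (minus strand) for Hoxa10, chr6:52245811-52246060 (minus strand) for Hoxa11, chr11:96281655-96281904 (plus strand) for Hoxb8 and chr15:103034145-103034394 (plus strand) for Hoxc4. Capitals mark matches on either strand to the core promoter motif TATAAA, to the factor-binding motifs CCAAT and GGGCGG (the GC box), to AGGTCA, the half-site of thyroid hormone receptor and other nuclear receptors, or to TGTTCT, the half-site of progesterone receptor.
Hoxa10: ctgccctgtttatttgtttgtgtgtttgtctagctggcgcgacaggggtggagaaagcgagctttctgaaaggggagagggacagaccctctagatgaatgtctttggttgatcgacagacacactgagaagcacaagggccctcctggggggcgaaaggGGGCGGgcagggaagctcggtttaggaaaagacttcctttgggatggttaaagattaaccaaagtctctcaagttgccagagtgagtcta
Hoxa11: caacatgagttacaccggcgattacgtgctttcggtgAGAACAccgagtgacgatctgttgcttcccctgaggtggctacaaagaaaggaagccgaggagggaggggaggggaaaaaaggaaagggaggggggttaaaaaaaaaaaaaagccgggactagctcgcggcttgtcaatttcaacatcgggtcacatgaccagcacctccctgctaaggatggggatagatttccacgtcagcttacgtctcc
Hoxb8: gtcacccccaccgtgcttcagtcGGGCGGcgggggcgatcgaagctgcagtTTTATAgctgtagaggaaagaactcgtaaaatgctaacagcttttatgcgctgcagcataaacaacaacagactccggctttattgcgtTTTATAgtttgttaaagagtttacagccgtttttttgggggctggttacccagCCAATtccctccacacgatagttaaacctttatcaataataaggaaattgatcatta
Hoxc4: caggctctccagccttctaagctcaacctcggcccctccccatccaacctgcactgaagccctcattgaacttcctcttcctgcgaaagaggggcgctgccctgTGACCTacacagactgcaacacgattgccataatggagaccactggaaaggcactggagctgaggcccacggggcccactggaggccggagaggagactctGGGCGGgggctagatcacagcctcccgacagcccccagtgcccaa
Counted back from the start site, Hoxa10 held a GC box at position -90, Hoxa11 a reverse progesterone receptor half-site at -213, and Hoxb8 a CCAAT motif, a GC box and 2 reverse TATAAA motifs. The Hoxc4 window held a GC box and a reverse AGGTCA, and its start site lies 15461 bases inside the gene as annotated in GENCODE M21. Of all 32851 windows of this length, 12.4% held TATAAA, 33.8% CCAAT, 32.7% GGGCGG, 14.02% AGGTCA and 16.1% TGTTCT. Among the 24 windows of 22 Hox genes, 14 held CCAAT, 10 GGGCGG, 6 AGGTCA, 4 TATAAA and 2 TGTTCT. The DR4 element, the direct repeat of AGGTCA that is the classical thyroid hormone response element, was in none of the Hox windows and in 5 of all windows. These matches describe letters only.

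The libraries held 48791602 to 59818887 estimated counts. Markers of simple epithelium and of stroma were present in all 8 libraries, as the label uterus implies, but the libraries differed in other cell types. Summed stroma markers ranged from 613 to 6567 CPM (counts scaled to the size of the library) in Thra1PV/+ and from 1985 to 6020 CPM in WT libraries, and the highest 3 were Thra1PV/+ library 1, WT library 1 and WT library 2. WT library 1 also held 12922 CPM of smooth muscle markers, against 145 to 1132 CPM in the other 7. Squamous epithelium markers summed to 3000 to 4603 CPM in Thra1PV/+ and 1.87 to 66.5 CPM in WT libraries, and 9 of the 10 were called higher. Thra itself had 6903, 2256, 3316 and 4566 counts in Thra1PV/+ libraries 1 to 4 and 5764, 5769, 2529 and 2266 in WT libraries 1 to 4, a count that cannot separate the PV transcript from the normal one.

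Levels per length were taken from the deposited TPM, which scales counts by transcript length and library. The deposited values also appear to have been quantile-normalized, a step that evens out differences in the spread between libraries. They placed the Hox genes of this tissue in separate blocks. The genes of the Hoxb cluster from Hoxb2 to Hoxb8 and the posterior genes Hoxa9 to Hoxa11 and Hoxd8 to Hoxd11 carried most of the Hox signal. The Hoxc cluster carried 0.237% to 1.04% of the summed Hox TPM of a library. In WT endometrium the highest mean levels were those of Hoxa10 at 220 ± 215 TPM (SD, n = 4), Hoxb8 at 128 ± 53.8, Hoxa11 at 101 ± 91.6, Hoxb6 at 101 ± 37.7 and Hoxb7 at 75.3 ± 23.5. In Thra1PV/+ endometrium they were Hoxb8 at 125 ± 41.0 TPM, Hoxb6 at 100.3 ± 38.3, Hoxb7 at 90.1 ± 23.1 and Hoxa10 at 61.8 ± 82.9. Neighbours in this order overlapped between libraries in both genotypes, except for the step from Hoxb4 (12.7 ± 7.19 TPM) to Hoxb9 (2.79 ± 0.539 TPM) in WT. Single libraries differed in their leading gene. Hoxa10 led in Thra1PV/+ library 1, WT library 1 and WT library 2 with 185, 468 and 328 TPM, and Hoxb8 led in the other 5 with 119 to 184 TPM.

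**Figure D1:**
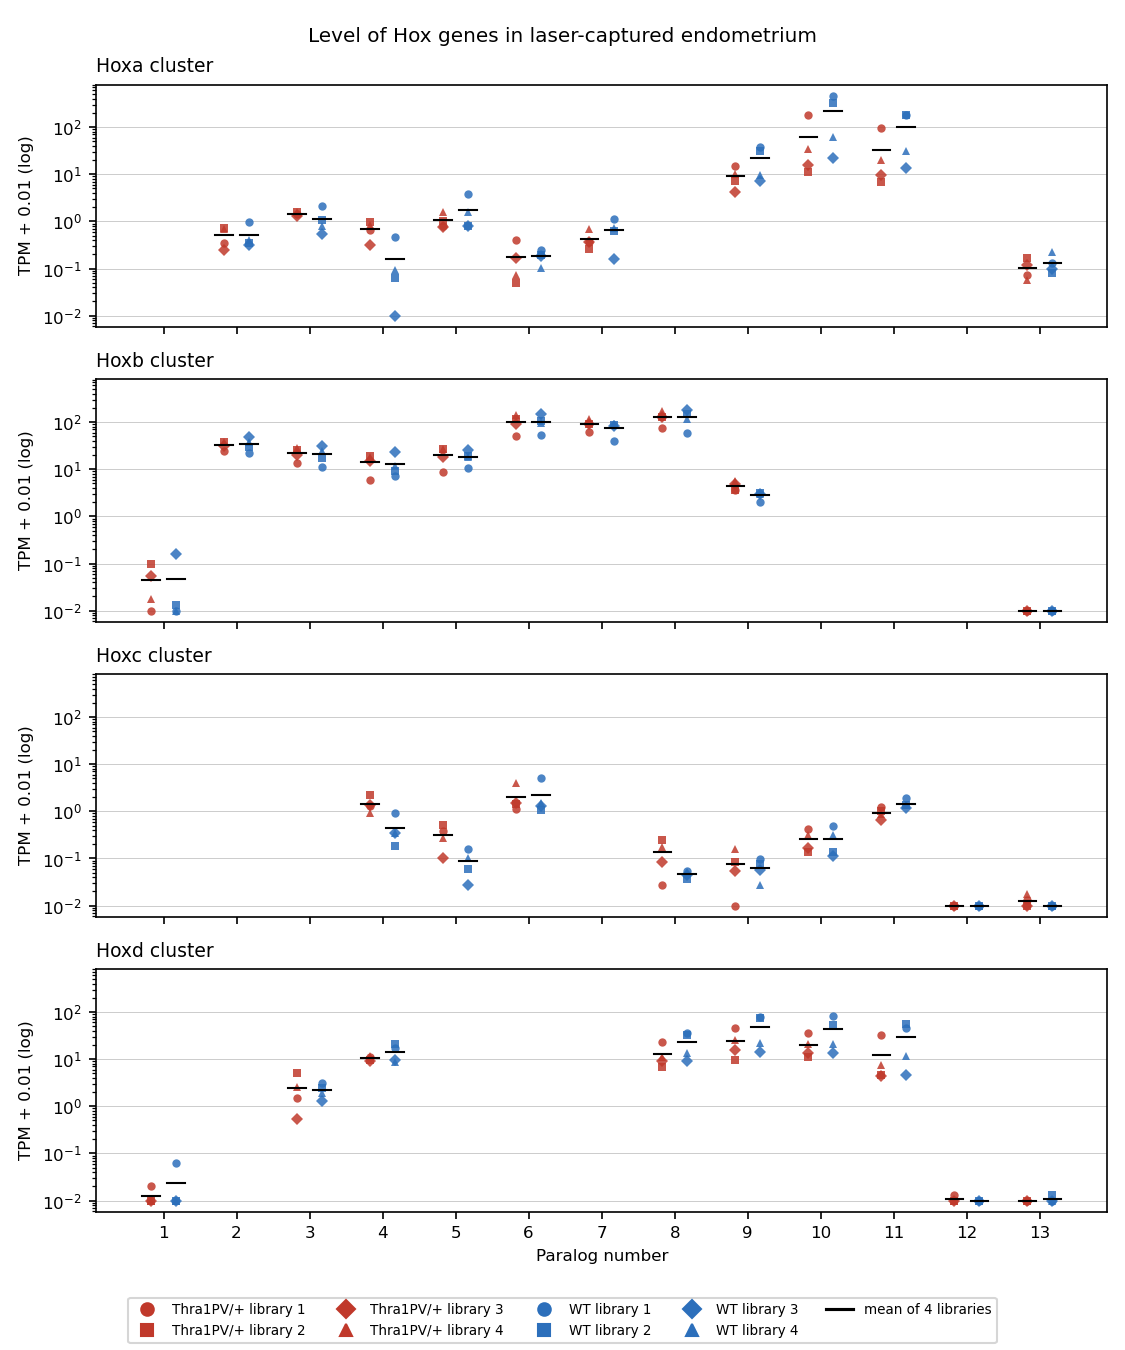
Level of 38 of the 39 Hox genes by paralog number (x axis) in the Hoxa, Hoxb, Hoxc and Hoxd clusters, as TPM + 0.01 on a log axis, with 1 point per library and a black line at the mean of 4 libraries. The Hoxb genes from paralog 2 to 8 lie close together in all libraries, and Hoxa10 and Hoxa11 spread from 6.71 to 468 TPM. Of paralogs 12 and 13, all but Hoxa13 lie at or near 0, and Hoxa13 is also low, at 0.0465 to 0.213 TPM.

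The share of the clusters in the summed Hox TPM varied widely between libraries of each genotype, and the ranges of the genotypes overlapped. A difference between genotypes in these shares was not tested. The Hoxa cluster held 43.1%, 5.59%, 6.77% and 10.1% in Thra1PV/+ libraries 1 to 4 and 59.3%, 44.8%, 6.93% and 17.8% in WT libraries 1 to 4. The Hoxb cluster held 34.6%, 84.6%, 81.7% and 77.8% in Thra1PV/+ and 17.5%, 35.0%, 84.4% and 68.0% in WT. In each genotype the libraries with a high share of Hoxa had a low share of Hoxb, as parts of 1 whole do. The ratio of Hoxa10 to Hoxb8 in TPM spanned 0.0866 to 8.09 over the 8 libraries, whereas that of Hoxa10 to its neighbour Hoxa11 stayed between 1.57 and 2.59.

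Of the 39 genes, 27 had enough counts to be tested for a difference between genotypes. By edgeR's quasi-likelihood test 0 of the 27 were called in either direction, a call being an adjusted p up to 0.1 with at least a 2-fold change, beside 0.99% of all 18174 tested genes (0.924% higher and 0.066% lower in Thra1PV/+). At an unadjusted p under 0.05 there were 3, or 11.1%, all of them higher in Thra1PV/+ (Hoxb9, Hoxc4 and Hoxc5), beside 9.77% of all genes (5.05% higher, 4.72% lower). DESeq2 called 1 of the 27 (Hoxc4, higher), or 3.70%, beside 3.86% of all genes (2.72% higher). The 4 libraries of one genotype did not overlap those of the other for 1 gene (Hoxb9, higher in Thra1PV/+), or 3.70%, beside 6.04% of all genes (3.55% higher, 2.49% lower). Counted in either direction, the Hox genes were at, close to or below the background share on each of these measures. Counted as higher only, the share at an unadjusted p under 0.05 by edgeR was 11.1% beside 5.05% of all genes. By limma voom 0 of the 27 were called, beside 311 of all 18174 genes. The median log2 fold change, Thra1PV/+ over WT, was -0.05 over the tested Hox genes and -0.05 over all tested genes. By cluster the median was -0.72 for the 8 tested Hoxa genes, 0.07 for 8 Hoxb, 0.05 for 5 Hoxc and -0.91 for 6 Hoxd genes. By paralog number it was 0.02 for 18 genes of paralogs 1 to 8 and -1.12 for 9 genes of paralogs 9 to 13, a difference that rests on genes of which none was called lower.

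**Figure D2:**
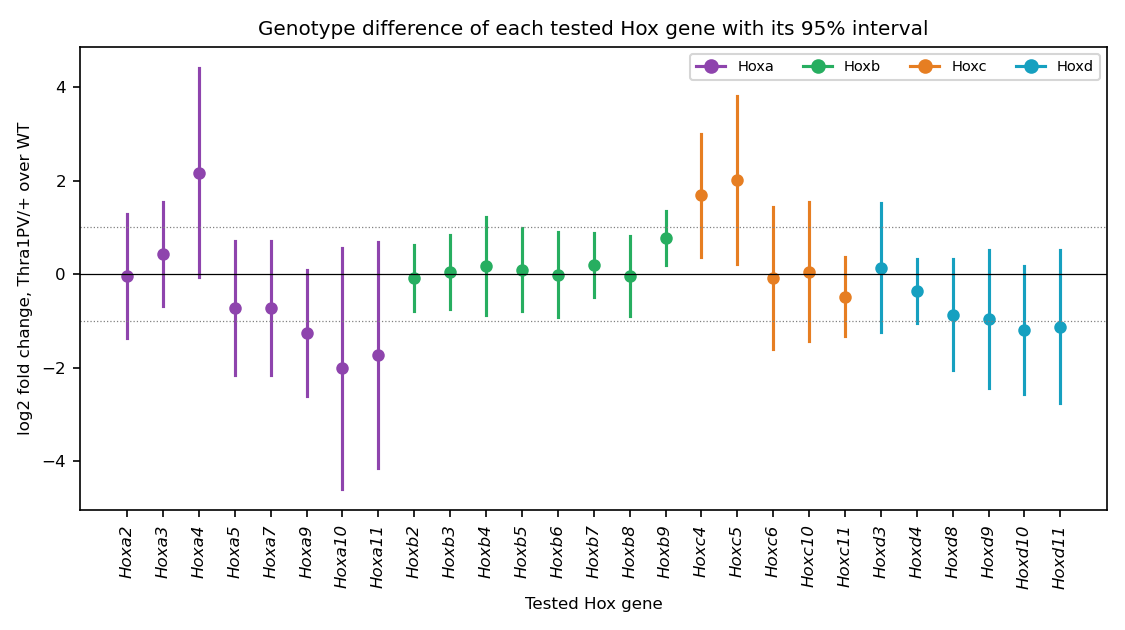
Log2 fold change, Thra1PV/+ over WT, of the 27 tested Hox genes (points) with 95% intervals from edgeR (lines); dotted lines mark a fold change of 2. The intervals of Hoxb9, Hoxc4 and Hoxc5 lie above 0, those of the Hoxb genes from Hoxb2 to Hoxb8 are narrow and centred near 0, and those of Hoxa10 and Hoxa11 are the widest of the posterior genes.

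The posterior genes that pattern the uterus had lower mean levels in Thra1PV/+ endometrium, but the libraries of the genotypes overlapped widely. Hoxa10, which marks the uterine part of the tract, had 169, 11.5, 17.2 and 35.9 CPM in Thra1PV/+ libraries 1 to 4 and 534, 315, 24.3 and 67.4 CPM in WT libraries 1 to 4. WT libraries 1 and 2 and Thra1PV/+ library 1 were high and the other 5 were low, so the highest and lowest libraries differed by a factor of 46.2. Its log2 fold change was -2.01 (SE 1.12, 95% interval -4.58 to 0.57, adjusted p = 0.627 by edgeR's quasi-likelihood test). Leaving out Thra1PV/+ library 1 gave -3.40 (adjusted p = 0.321) and leaving out WT library 1 gave -1.17 (adjusted p = 0.889). Hoxa11, its neighbour, had 142, 10.1, 15.2 and 31.2 CPM in Thra1PV/+ and 308, 274, 22.3 and 50.9 CPM in WT libraries. The same 3 libraries were high, and the log2 fold change was -1.72 (SE 1.05, adjusted p = 0.658 by edgeR). Leaving out Thra1PV/+ library 1 gave -3.07 and leaving out WT library 1 gave -1.18 (adjusted p = 0.323 and 0.884 by edgeR). Hoxa9, the oviduct gene of this series, had 27.3, 14.5, 8.77 and 21.2 CPM in Thra1PV/+ and 78.2, 59.3, 14.3 and 19.4 CPM in WT libraries. It again was highest in those 3 libraries, with a log2 fold change of -1.25 (SE 0.59, adjusted p = 0.554 by edgeR). Since these are bulk samples, fewer cells of a type and less RNA per cell cannot be told apart.

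The posterior Hoxd genes, which act with their Hoxa paralogs in limb and genital development, had the same highest 3 libraries as Hoxa10 and Hoxa11. Hoxd10 had 42.4, 14.4, 18.0 and 26.3 CPM in Thra1PV/+ and 117, 67.9, 18.4 and 28.2 CPM in WT libraries. Hoxd11 had 22.2, 4.38, 5.60 and 8.63 CPM in Thra1PV/+ and 32.6, 39.6, 5.71 and 11.1 CPM in WT libraries. Thra1PV/+ library 1 stood with WT libraries 1 and 2 for both genes. Hoxd9 ranged from 10.6 to 51.5 CPM in Thra1PV/+ and from 16.4 to 87.0 CPM in WT, and Hoxd8 from 8.52 to 28.7 and from 11.8 to 46.7 CPM. The log2 fold changes were -0.87 for Hoxd8, -0.96 for Hoxd9, -1.19 for Hoxd10 and -1.12 for Hoxd11, with adjusted p from 0.576 to 0.688 by edgeR. Of the posterior Hoxc genes, Hoxc11 had 0.919 to 2.07 CPM in Thra1PV/+ and 1.33 to 2.75 CPM in WT (log2 fold change -0.48, adjusted p = 0.744 by edgeR), and Hoxc10 had 0.183 to 0.624 and 0.119 to 0.725 CPM (0.05, adjusted p = 0.988 by edgeR).

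In 9 of the 27 tested Hox genes, or 33.3%, the highest 3 libraries were Thra1PV/+ library 1, WT library 1 and WT library 2, beside 13.7% of all tested genes. They were Hoxa9, Hoxa10, Hoxa11, Hoxc11, Hoxd4, Hoxd8, Hoxd9, Hoxd10 and Hoxd11. In 5 genes, or 18.5%, all from the Hoxb cluster (Hoxb2, Hoxb3, Hoxb4, Hoxb6 and Hoxb7), the same libraries were the lowest 3, beside 9.67% of all tested genes. These were also the 3 libraries with the highest stroma marker level. It was a mean of 8.46 to 8.64 log2 CPM over 10 markers against 5.48 to 7.31 in the other 5. Of the 10 stroma markers, 7 had these libraries as their highest 3. The same 3 libraries had the highest endothelium marker level, a mean of 5.02 to 5.31 log2 CPM against 2.88 to 4.01. They also had the lowest simple epithelium marker level, 7.92 to 8.29 against 8.77 to 9.21 log2 CPM. With the stroma marker level as a term in the edgeR fit, the log2 fold change was -0.51 for Hoxa10, -0.34 for Hoxa11, -0.41 for Hoxa9, -0.27 for Hoxd10, -0.08 for Hoxd11, -0.12 for Hoxd8 and 0.04 for Hoxd9. Without the 3 libraries it was -1.05 for Hoxa10, -0.92 for Hoxa11 and between -0.40 and -0.13 for the other 5. That fit kept Thra1PV/+ libraries 2 to 4 and WT libraries 3 and 4. These genes had the 3 omitted libraries as their highest, so the omission by itself favoured a smaller difference. The stroma term and the omission were chosen after the data were seen. In both fits 0 of the Hox genes were called by edgeR, beside 1.88% of all genes with the stroma term and 1.09% without the 3 libraries. At an unadjusted p under 0.05 there were 3 Hox genes of 27 with the term (Hoxb9, Hoxc4 and Hoxc5, 11.1%), beside 14.0% of all genes (7.94% higher). Without the 3 libraries there were 6 of 28 (Hoxa3, Hoxa4, Hoxb9, Hoxc4, Hoxc5 and Hoxc8, 21.4%), beside 11.7% of all genes (6.44% higher), and all 6 were higher in Thra1PV/+. Whether the content of stroma, endothelium or simple epithelium accounts for the levels of these genes was not tested.

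**Figure D3:**
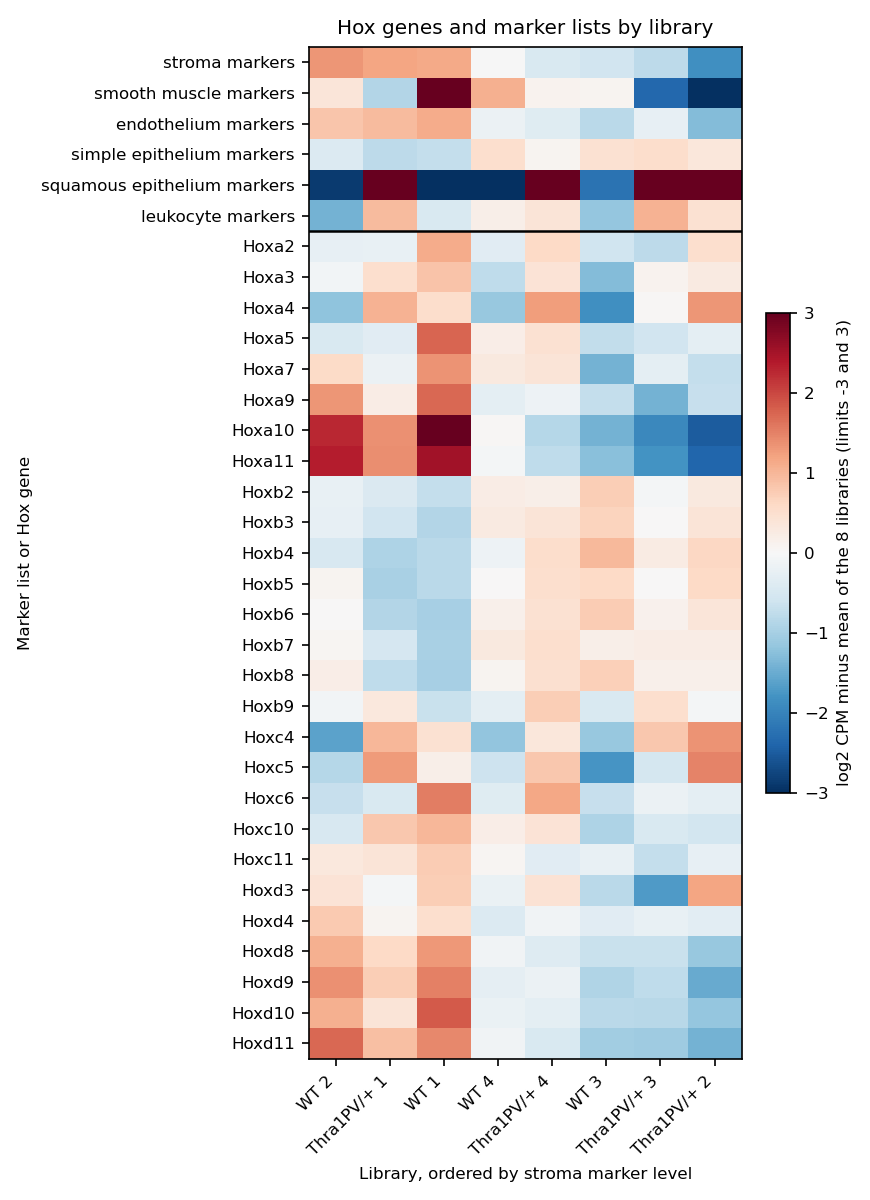
Log2 CPM (with 0.1 added to the Hox genes) of 6 marker lists (top, mean over each list) and of the 27 tested Hox genes, minus the mean of the 8 libraries, with libraries ordered from left to right by stroma marker level. Hoxa9 to Hoxa11 and Hoxd8 to Hoxd11 are above their mean (red) in the 3 libraries with the highest stroma markers, Hoxb2 to Hoxb4 are below theirs (blue) in those libraries, and the squamous markers divide the genotypes.

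The Hoxb genes from Hoxb2 to Hoxb8, which pattern the hindbrain and trunk, had similar levels in both genotypes. Hoxb8 had 82.7, 156, 157 and 196 CPM in Thra1PV/+ libraries 1 to 4 and 70.5, 160, 232 and 149 CPM in WT libraries 1 to 4. Hoxb6 had 47.2, 113, 94.9 and 119 CPM in Thra1PV/+ and 43.7, 88.2, 149 and 96.2 CPM in WT libraries. For both genes the number 1 library of each genotype was the lowest and the rest of the libraries were interleaved. Hoxb7 ranged from 49.2 to 98.8 CPM in Thra1PV/+ and from 35.5 to 84.7 CPM in WT, and Hoxb2, Hoxb3, Hoxb4 and Hoxb5 lay between 12.5 and 60.1 CPM in all libraries. The log2 fold changes of these 7 genes were between -0.08 (Hoxb2, SE 0.31) and 0.19 (Hoxb7, SE 0.30). Their 95% intervals reached from -0.92 (Hoxb6) to 1.22 (Hoxb4), so a 2-fold difference in either direction lay outside the interval of each gene but Hoxb4, whose upper bound passed it. With library sizes alone as scaling, Hoxb2, Hoxb6 and Hoxb8 turned from slightly negative to slightly positive (0.03, 0.09 and 0.05). With the stroma marker term the log2 fold changes were -0.37 for Hoxb2, -0.32 for Hoxb3, -0.37 for Hoxb4 and -0.41 for Hoxb5. In that fit they were -0.45 for Hoxb6, -0.07 for Hoxb7 and -0.39 for Hoxb8. The adjusted p of the 7 genes ran from 0.479 to 0.947 by edgeR.

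Hoxb9, the posterior end of this block, was the only Hox gene whose libraries did not overlap between genotypes. It had 7.38, 5.70, 8.44 and 9.86 CPM in Thra1PV/+ libraries 1 to 4 and 3.70, 5.54, 4.32 and 4.81 CPM in WT libraries 1 to 4. The gap between the lowest Thra1PV/+ and the highest WT library was small. The log2 fold change was 0.77 (SE 0.25, 95% interval 0.20 to 1.35), under the fold change of a call, with an adjusted p of 0.352 by edgeR's quasi-likelihood test. By DESeq2 it was 0.80 with an adjusted p of 0.0204, which passed the p of a call but not its fold change. It was 0.84 with the stroma marker term and 0.85 without the 3 libraries of highest stroma marker level (adjusted p = 0.226 and 0.375 by edgeR).

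Anterior and central genes of the other clusters had low levels. Hoxa3 had 2.75, 2.31, 2.04 and 2.54 CPM in Thra1PV/+ and 3.51, 1.79, 0.716 and 1.09 CPM in WT libraries, with WT library 1 above every other (log2 fold change 0.44, adjusted p = 0.836 by edgeR). Hoxa5 had 0.817 to 1.79 CPM in Thra1PV/+ and 0.903, 0.716 and 1.47 CPM in WT libraries 2 to 4, against 4.50 CPM in WT library 1 (-0.72, adjusted p = 0.773 by edgeR). Hoxc6 had 1.27, 1.42, 1.55 and 4.06 CPM in Thra1PV/+ and 5.32, 1.07, 1.05 and 1.36 CPM in WT libraries (-0.08, adjusted p = 0.984 by edgeR). WT library 1, the library with the smooth muscle markers, was thus the highest for all 3 genes. It was also the highest for Hoxa9, Hoxa10, Hoxa11, Hoxc10, Hoxc11, Hoxd8, Hoxd9 and Hoxd10. The share of all tested genes that were highest in this library was not counted. The part of the smooth muscle markers in these levels was not tested. Hoxa2 and Hoxa7, named here after their values were seen, lay between 0.199 and 1.95 CPM and were also highest in WT library 1. Hoxd3 had 1.02 to 8.22 CPM in Thra1PV/+ and 1.99 to 6.01 CPM in WT (0.14, adjusted p = 0.969 by edgeR), and Hoxd4 had 10.2 to 13.4 and 9.46 to 22.0 CPM (-0.36, adjusted p = 0.765 by edgeR). Hoxd3 and Hoxd4 share 17232 bases of their annotated spans on the same strand, Hoxa4, Hoxa5 and Hoxa6 lie within the span of Hoxa3, and Hoxc5 overlaps Hoxc6, Hoxc8, Hoxc9 and Hoxc10. Reads in such shared stretches could be divided between genes by the authors' estimation, so the values of these genes are uncertain.

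Hoxc4, Hoxc5 and Hoxa4, genes of paralogs 4 and 5 that act in the neck and upper trunk of the embryo, had more counts in Thra1PV/+ than in WT endometrium, and they are named here after their values were seen. Hoxc4 had 118, 138, 92 and 76 counts in Thra1PV/+ libraries 1 to 4 and 76, 15, 21 and 19 counts in WT libraries 1 to 4. WT library 1 equalled the lowest Thra1PV/+ library and the other WT libraries were far lower. Its log2 fold change was 1.68 (SE 0.58, 95% interval 0.36 to 3.01, adjusted p = 0.378 by edgeR's quasi-likelihood test). Without WT library 1 it was 2.53 and passed the call (adjusted p = 0.0583 by edgeR), and DESeq2 called it with all libraries (1.71, adjusted p = 0.0776). Over the other edgeR and limma fits the adjusted p ran from 0.118 to 0.714. Hoxc5 had 49, 52, 9 and 35 counts in Thra1PV/+ and 19, 7, 1 and 8 counts in WT libraries, with Thra1PV/+ library 3 inside the WT range (log2 fold change 2.01, SE 0.78, adjusted p = 0.451 by edgeR). Hoxa4 had 35, 39, 13 and 43 counts in Thra1PV/+ and 22, 3, 0 and 3 counts in WT libraries. Here WT library 1 exceeded Thra1PV/+ library 3, and the other 3 WT libraries were at or under 3 counts, the floor of this table (log2 fold change 2.17, SE 0.98, 95% interval -0.07 to 4.41, adjusted p = 0.529 by edgeR). Marker lists of other cell types differ between the same groups. Of the squamous epithelium markers 9 of 10 were called higher, with the summed levels given above. The leukocyte markers summed to 380 to 912 CPM in Thra1PV/+ and 313 to 439 CPM in WT libraries, with 0 called and 4 of the 8 tested at an unadjusted p under 0.05, all higher, by edgeR. All 7 smooth muscle markers were lower in Thra1PV/+ at an unadjusted p under 0.05 by edgeR with 0 called, and summed to 145 to 675 CPM against 568 to 12922 CPM in WT. The part of these cell types in the counts of Hoxc4, Hoxc5, Hoxa4 and of Hoxaas3 and Hotairm1, described further on, was not tested.

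**Figure D4:**
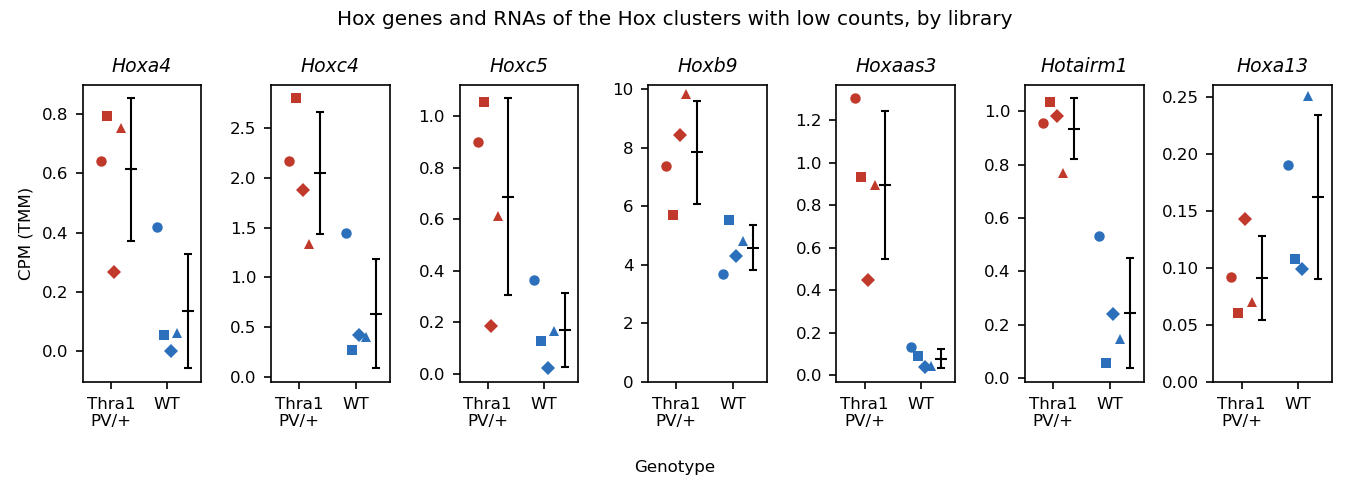
CPM of 5 Hox genes and of the noncoding genes Hoxaas3 and Hotairm1 in the 4 Thra1PV/+ (red) and 4 WT (blue) libraries, with symbols for library numbers 1 (circle), 2 (square), 3 (diamond) and 4 (triangle) and the mean ± SD to the right of each group. The groups do not overlap for Hoxb9, Hoxaas3 and Hotairm1, whereas WT library 1 or a single Thra1PV/+ library bridges them for Hoxa4, Hoxc4 and Hoxc5.

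The distal genes of the tract axis were near the limit of detection. Hoxa13, which marks the upper vagina, had 5, 3, 7 and 4 counts in Thra1PV/+ and 10, 6, 5 and 12 counts in WT libraries, too few to be tested. Hoxc13, Hoxd12 and Hoxd13 had at most 1 count in any library, and Hoxb13 and Hoxc12 had 0 in all. A level of up to 3 counts would allow 0 in a single library. Counts of 0 in every library set a lower limit, which was not computed. None of the 6 genes of paralogs 12 and 13 was tested. At the anterior end Hoxb1 and Hoxd1 had 0 to 3 counts each and were not tested either. Also under the filter were Hoxa6 with 1 to 13 counts, Hoxc8 with 2 to 22 and Hoxc9 with 0 to 15. All 12 untested genes had at most 22 counts in any library.

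Among the Hox genes and the noncoding genes of their clusters, the only gene called by edgeR was a noncoding one. Of 16 noncoding genes that lie in the Hox clusters, 7 were tested, 1 was called higher and 0 lower by edgeR (0.924% and 0.066% of all genes), and at an unadjusted p under 0.05 there were 2 higher and 1 lower (5.05% and 4.72% of all genes). DESeq2 and limma voom each called 2 higher, Hoxaas3 and Hotairm1, beside 2.72% of all genes called higher by DESeq2. By limma voom 311 of all 18174 genes were called in either direction. Hoxaas3 is an antisense RNA that runs across Hoxa3, Hoxa4, Hoxa5 and Hoxa6 and into Hoxa7 (chr6:52175217-52215076, plus strand). It had 71, 46, 22 and 51 counts in Thra1PV/+ libraries 1 to 4 and 7, 5, 2 and 2 counts in WT libraries 1 to 4. Every Thra1PV/+ library was above every WT library, WT library 1 included. WT libraries 3 and 4 were under the floor of 3 counts, so the size of the change is uncertain. Hoxaas3 rose with a log2 fold change of 3.50 (SE 0.54, adjusted p = 0.0322 by edgeR's quasi-likelihood test), and it was not called only where WT library 4 was left out (3.31, adjusted p = 0.115 by edgeR) among the fits in which it was tested. It had 3.87 with the stroma marker term (adjusted p = 0.0218 by edgeR). Hotairm1, a noncoding RNA of the Hoxa cluster, had 52, 51, 48 and 44 counts in Thra1PV/+ and 28, 3, 12 and 7 counts in WT libraries. Its groups did not overlap either. Of the 7 tested noncoding genes 2 were thus higher without overlap, beside 3.55% of all genes. It was not called by edgeR (1.93, SE 0.61, adjusted p = 0.342) but was by DESeq2 (1.96, adjusted p = 0.0470) and by limma voom (2.47, adjusted p = 0.0701). Hoxa11os, the antisense RNA of Hoxa11, had 40.5, 11.8, 14.7 and 24.2 CPM in Thra1PV/+ and 79.4, 145, 17.5 and 21.1 CPM in WT libraries, highest in the same 3 libraries as Hoxa11 (-1.53, adjusted p = 0.556 by edgeR). Hoxb5os had 0.994 to 2.42 CPM in Thra1PV/+ and 2.11 to 5.63 CPM in WT (-1.21, adjusted p = 0.436 by edgeR), and Hoxb3os had 1.56 to 3.35 and 2.04 to 4.52 CPM (-0.32, adjusted p = 0.845 by edgeR). The kit marks strand, but the strand setting of the count estimation is not given in the sources used here, so reads of Hoxaas3 and of the Hoxa genes it overlaps may not be fully separated.

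The partners and regulators of Hox proteins were read as 4 lists, beside 0.99% of all tested genes called and 9.77% with an unadjusted p under 0.05 by edgeR. Neither DESeq2 nor limma voom called any gene of these lists or of the neighbours of the clusters. Among 9 TALE cofactors, the homeodomain proteins that bind DNA with Hox factors, 0 were called by edgeR and 0 had an unadjusted p under 0.05. Meis2 had 95.3 to 110 CPM in Thra1PV/+ libraries, and in WT libraries 270 CPM in library 1 against 23.2 to 34.1 CPM in the other 3 (log2 fold change 0.21, adjusted p = 0.962 by edgeR). Meis1 had 102 to 113 CPM in Thra1PV/+ and 60.6 to 147 CPM in WT. Of 16 Polycomb genes, whose products keep Hox genes silent, 0 were called by edgeR, with 3 higher and 1 lower at an unadjusted p under 0.05, a share above that of all genes. The most highly expressed were Cbx6 (209 to 311 CPM in Thra1PV/+, 273 to 470 CPM in WT, adjusted p = 0.491 by edgeR), Phc2 and Ezh1. Of the 16 Polycomb genes, 2 were higher in Thra1PV/+ without overlap between the groups, beside 3.55% of all genes. Cbx2 had a log2 fold change of 0.67 by DESeq2 (adjusted p = 0.0185), which passed the p of a call but not its fold change. By limma voom Cbx2 had 0.59 (adjusted p = 0.205). The trithorax and H3K27 demethylase list, which opposes Polycomb, had 0 of 10 called and 0 with an unadjusted p under 0.05 by edgeR, with Kmt2d, Kmt2a and Kdm6b at the highest levels. Of 12 retinoid and Cdx genes, the inputs that set Hox expression along the axis, 8 were tested, 0 were called and 1 had an unadjusted p under 0.05 by edgeR. This was Rarg, a retinoic acid receptor, with 129, 128, 130 and 123 CPM in Thra1PV/+ and 63.2, 83.1, 107 and 73.0 CPM in WT libraries. The groups did not overlap, as in 1 of the 8 tested genes, beside 3.55% of all genes that were higher without overlap. The log2 fold change was 0.64 (adjusted p = 0.223 by edgeR). By DESeq2 it was 0.67 (adjusted p = 0.0155) and by limma voom 0.71 (adjusted p = 0.0424), so both passed the p of a call but not its fold change. Aldh1a2, which makes retinoic acid in the stroma, had 377 CPM in Thra1PV/+ library 1 and 20.8 to 121 CPM in the other 7.

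Genes next to the clusters and genes known to respond to Hoxa10 or Hoxa11 were read for comparison. Of 15 neighbours 10 were tested and 0 were called by edgeR, with 1 lower at an unadjusted p under 0.05 (Calcoco1, 52.4 to 75.0 CPM in Thra1PV/+ and 67.5 to 138 CPM in WT, log2 fold change -0.57, adjusted p = 0.489 by edgeR). Of 12 uterine genes reported to respond to Hoxa10 or Hoxa11, some activated and some repressed, 11 were tested and 0 were called by edgeR, with 2 lower at an unadjusted p under 0.05 (4.72% of all genes). Ptger4, a prostaglandin E2 receptor, had 23.2, 22.2, 24.2 and 21.5 CPM in Thra1PV/+ and 47.9, 81.7, 86.0 and 32.0 CPM in WT libraries. The groups did not overlap, as in 1 of the 11 tested genes, beside 2.49% of all genes that were lower without overlap. Ptger4 was just over the threshold (log2 fold change -1.44, SE 0.30, adjusted p = 0.106 by edgeR). DESeq2 called Ptger4 alone of this list (-1.42, adjusted p = 0.00117) and gave Ptger3 no p-value, and limma voom called none. Ptger3, another prostaglandin E2 receptor, had 0.0406 to 3.45 CPM in Thra1PV/+ and 256 CPM in WT library 1 against 1.87 to 10.9 CPM in WT libraries 2 to 4 (-5.76, SE 1.87, adjusted p = 0.352 by edgeR). Ptger3 was highest in the library with the smooth muscle markers, whose part in it was not tested. Emx2, a homeobox gene that Hoxa10 represses in endometrium, had 64.0 to 103 CPM in Thra1PV/+ and 87.8 to 137 CPM in WT (-0.38, adjusted p = 0.576 by edgeR), Wnt4 had 154 to 186 and 30.7 to 190 CPM (0.60, adjusted p = 0.751 by edgeR), and Wnt5a had 31.2 to 183 and 76.0 to 228 CPM (-0.70, adjusted p = 0.765 by edgeR). Igfbp1 had at most 1 count in any library.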

How the data were processed

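The libraries came from captured endometrium of 4 WT and 4 Thra1PV/+ mice. Per the labels and the study's methods, stranded mRNA libraries were sequenced paired-end, reads were trimmed with Trimmomatic, and the authors deposited estimated counts per gene from salmon (mm10). The version of salmon, the annotation and the strand setting are not given in the sources used here. The authors also deposited TPM values, which after sorting differ little from library to library, so they appear to have been quantile-normalized, a step that evens out differences in the spread between libraries. The TPM table has 1 more column that matches no sample, and it was not used. The counts carry no such step.

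Estimated counts were rounded, and genes passed edgeR's filterByExpr (minimum count 10, minimum total count 15), leaving 18174 of 52325 genes. The genotypes were compared with edgeR 4.0.16 (TMM normalization, quasi-likelihood test, genotype as the only term, R 4.3.3), and Benjamini-Hochberg adjustment covered every tested gene. A call needed an adjusted p up to 0.1 and at least a 2-fold change. CPM values use TMM-scaled library sizes. At 48791602 to 59818887 counts per library, 3 counts were taken as the floor, which covers counting error only. Counts on identifiers with no symbol came to no more than 0.00897% of any library. DESeq2 1.42.0, which the authors used, limma 3.58.1 and other scalings, filters and sets of libraries were alternatives. The edgeR step was tested on simulated counts. Positions are from GENCODE M21, in which 38 of the 39 Hox genes have the same identifier version.

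The members and gene lists were chosen with earlier results of these data known. Named genes are the Hox genes with a mean of at least 1 TPM, tested Hox genes of paralogs 9 to 13, Hox genes called, Thra, and, of each list, the genes called and the 3 with the highest mean log2 CPM. Genes singled out in counts are named beside them. Correlations of same-numbered libraries gave no sign that the replicate numbers pair the mice, but they cannot exclude a pairing. Protein sequences were not used here, and some genes that the rule names are not reported here.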

Additional observations from a re-analysis of the deposited data

Results flagged for a closer look

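Hoxc6 in WT library 1 stood apart from the other WT libraries. It had 5.32 CPM, against 1.05 to 1.36 CPM in the other 3. Taken on log2 CPM, the gap to the nearest of them was 0.845 of the range of the group. This is above the 95% critical value of Dixon's test for 4 samples. On this log scale it was the only one of 56 groups of 4 libraries that passed the limit. Gaps in CPM were not used. Chance alone passes about 1 in 20 groups, or 2.80 of 56. WT library 1 also had the highest smooth muscle marker level, 12922 CPM, whose part in the level of Hoxc6 was not tested.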

How the results depend on the processing

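The results were computed under other scalings, filters, tools, designs, thresholds and sets of libraries, of which the stroma marker term and the omission of the 3 libraries with the highest stroma markers were chosen after seeing the data. All genes called, 180 with all libraries, numbered 81 with at least 10 counts in every library, 702 with DESeq2, 311 with limma voom, 342 with the stroma term, 119 at an adjusted p of 0.05, 1775 at an unadjusted p under 0.05, and 81 to 167 with 1 library left out. With the replicate number as a block 82 genes and 0 Hox genes were called. Same-numbered libraries correlated at 0.27, -0.44, 0.34 and -0.16, and 2 of 8 libraries correlated best with their own number. These values gave no sign that the numbers pair the mice, but they cannot exclude a pairing. Hox genes called higher numbered 1 with DESeq2, 0 to 1 with 1 library left out (1 without WT library 1) and 3 at an unadjusted p under 0.05, and 0 under every other setting. Hox genes called lower were 0 under all settings.

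Some log2 fold changes changed sign between settings, and their genes were not called under any setting. They were 0.0053, 0.027, 0.088 and 0.048 for Hoxa2, Hoxb2, Hoxb6 and Hoxb8 with library size only, and 0.044 and 0.0073 for Hoxb6 and Hoxb8 with upper-quartile factors. Hoxb6 had 0.016 with DESeq2 size factors and with DESeq2, 0.018 with a minimum of 1 count in any library, and 0.0033 with 10 in every library. With the replicate block Hoxa2 had 0.063, Hoxb6 0.034, Hoxb8 0.0089, Hoxc6 0.18 and Hoxd3 -0.080. With limma voom Hoxb6 and Hoxb8 had 0.14, Hoxc6 0.32, Hoxc10 -0.16 and Hoxd3 -0.58. On log2 TPM, Hoxb8 had 0.027 and 0.028 with pseudocounts of 1 and 0.1, Hoxd3 -0.031 and -0.15, and Hoxc10 -0.0023 with a pseudocount of 1. With the stroma term Hoxa2 had 0.098, Hoxa7 0.0084, Hoxb3 -0.32, Hoxb4 -0.37, Hoxb5 -0.41, Hoxb7 -0.071, Hoxc6 0.35, Hoxd4 0.0065 and Hoxd9 0.036. Without the 3 libraries Hoxa2 had 0.87, Hoxa5 0.19, Hoxa7 0.26, Hoxb3 -0.16, Hoxb4 -0.0023, Hoxc6 0.997 and Hoxd4 0.22. With 1 library left out the ranges were -0.28 to 0.66 for Hoxa2, -1.02 to 0.20 for Hoxa5, -0.23 to 0.23 for Hoxb2, -0.12 to 0.34 for Hoxb3, -0.088 to 0.39 for Hoxb5, -0.20 to 0.32 for Hoxb6, -0.24 to 0.25 for Hoxb8, -0.64 to 0.88 for Hoxc6, -0.29 to 0.70 for Hoxc10 and -0.36 to 0.47 for Hoxd3. The cause was not tested. Hoxa4, Hoxc5, Hoxc10, Hoxaas3 and Hotairm1 were not tested where 10 counts in every library were required.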
